A study of Mus musculus with 12 samples.

Results

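Cadherins are membrane proteins that hold neighbouring cells together by binding cadherins on the next cell in the presence of calcium. Inside the cell the classical cadherins bind p120-catenin and beta-catenin, and beta-catenin binds alpha-catenin, which reaches the actin skeleton. Beta-catenin is also the messenger of WNT signalling, so the same protein serves adhesion and transcription. In the developing forebrain N-cadherin forms the junctions at the ventricular ends of radial glia, type II cadherins mark particular nuclei and cortical areas, and delta-protocadherins act in neuron sorting and axon growth. The giant FAT and DCHS cadherins and the CELSR cadherins take part in tissue growth and planar cell polarity.

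The members described here are the mouse genes whose symbols are Cdh, Pcdh or Celsr with a number, Pcdh11x, Fat1 to Fat4, Dchs1 or Dchs2, where a probe set of the array carried that symbol alone. There were 61 such probe sets for 43 genes, out of 21789 probe sets with a single symbol for 19938 genes. Dchs2 had no probe set of this kind. A gene with several probe sets was represented by the brightest on average, and 39 of the 43 genes lay above the 40th percentile of the array in at least 3 of the 12 arrays and were tested. The other 4 were Cdh17, Cdh19 and Pcdh1, above that percentile on 0 arrays, and Cdh26, above it on 2.

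RNA was taken from the forebrain of mice on postnatal day 0, with 3 biological replicates in each of 4 genotypes and 1 Affymetrix array for each. GBS mice (hGFAP-cre::Ctnnb1(ex3)Fl/+SmoM2Fl/+) carried both mutant alleles together with Cre, and the labels call their tissue tumor. GS mice (hGFAP-cre::SmoM2Fl/+) carried a Smoothened that signals without a ligand, which switches on the sonic hedgehog pathway. GB mice (hGFAP-cre::Ctnnb1(ex3)Fl/+) carried a Ctnnb1 allele from which Cre removes exon 3, so that beta-catenin is no longer broken down. Control mice (Ctnnb1(ex3)Fl/+SmoM2Fl/+) carried both alleles without Cre, so any effect of Cre cannot be told apart from that of the alleles in comparisons with Control. The human GFAP promoter drives Cre in radial glia, so the alleles are recombined in those cells and their descendants and not in every cell of the tissue. Bulk RNA does not tell fewer cells of a type from less RNA per cell, and this holds for every value below.

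Levels are log2 values, and a change of 1 is a doubling. A gene was called higher or lower where limma's test, fitted to all 14195 genes that passed the filter, gave a Benjamini-Hochberg adjusted p under 0.05. The forebrain identity list had 8 genes with a probe set and all 8 passed the filter, against 5 of 8 genes of the midbrain and hindbrain list. Of all 19938 genes 14195 passed it, so these small counts say little about the tissue. GB replicate 2 stood apart from its group, and it deviated in a direction shared with GS replicate 3 and Control replicate 3 (correlations of 0.83 and 0.80 across genes) and, less closely, with GBS replicate 1 (0.52). Counts without the first 3 of these arrays, and without all 4, are given beside the main ones as alternatives chosen after seeing the data. The median level of 1194 odorant and pheromone receptor genes, most of them silent in brain, ran from 4.84 to 4.92 in GBS, from 4.88 to 5.23 in GS, from 5.02 to 5.35 in GB and from 5.12 to 5.23 in Control. All GBS values lay below all those of GB and Control. Fits below with this level as a covariate therefore cannot fully separate it from genotype in those comparisons. GS replicates 2 and 3 and GB replicates 2 and 3 had Xist above 7 and the other 8 arrays did not, so GBS and Control matched in this sign of sex.

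In the GBS tumors 4 cadherin genes were higher than in Control (Cdh1, Fat1, Cdh20 and Pcdh15) and 3 were lower (Cdh6, Pcdh8 and Cdh12). Over all genes tested 11% were called higher and 4.35% lower, and over the 39 members 10.3% and 7.69%. At an unadjusted p under 0.05 there were 20 members (51.3%, beside 38.8% of all genes). The median change of the members was -0.21, beside -0.10 over all genes. The arrays of the groups did not overlap for 25 members, 9 higher and 16 lower in GBS (64.1% of members, beside 64.6% of all genes, which were higher for 28.8% and lower for 35.7%). Members with higher and with lower levels stood side by side in most subfamilies.

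**Figure D1:**
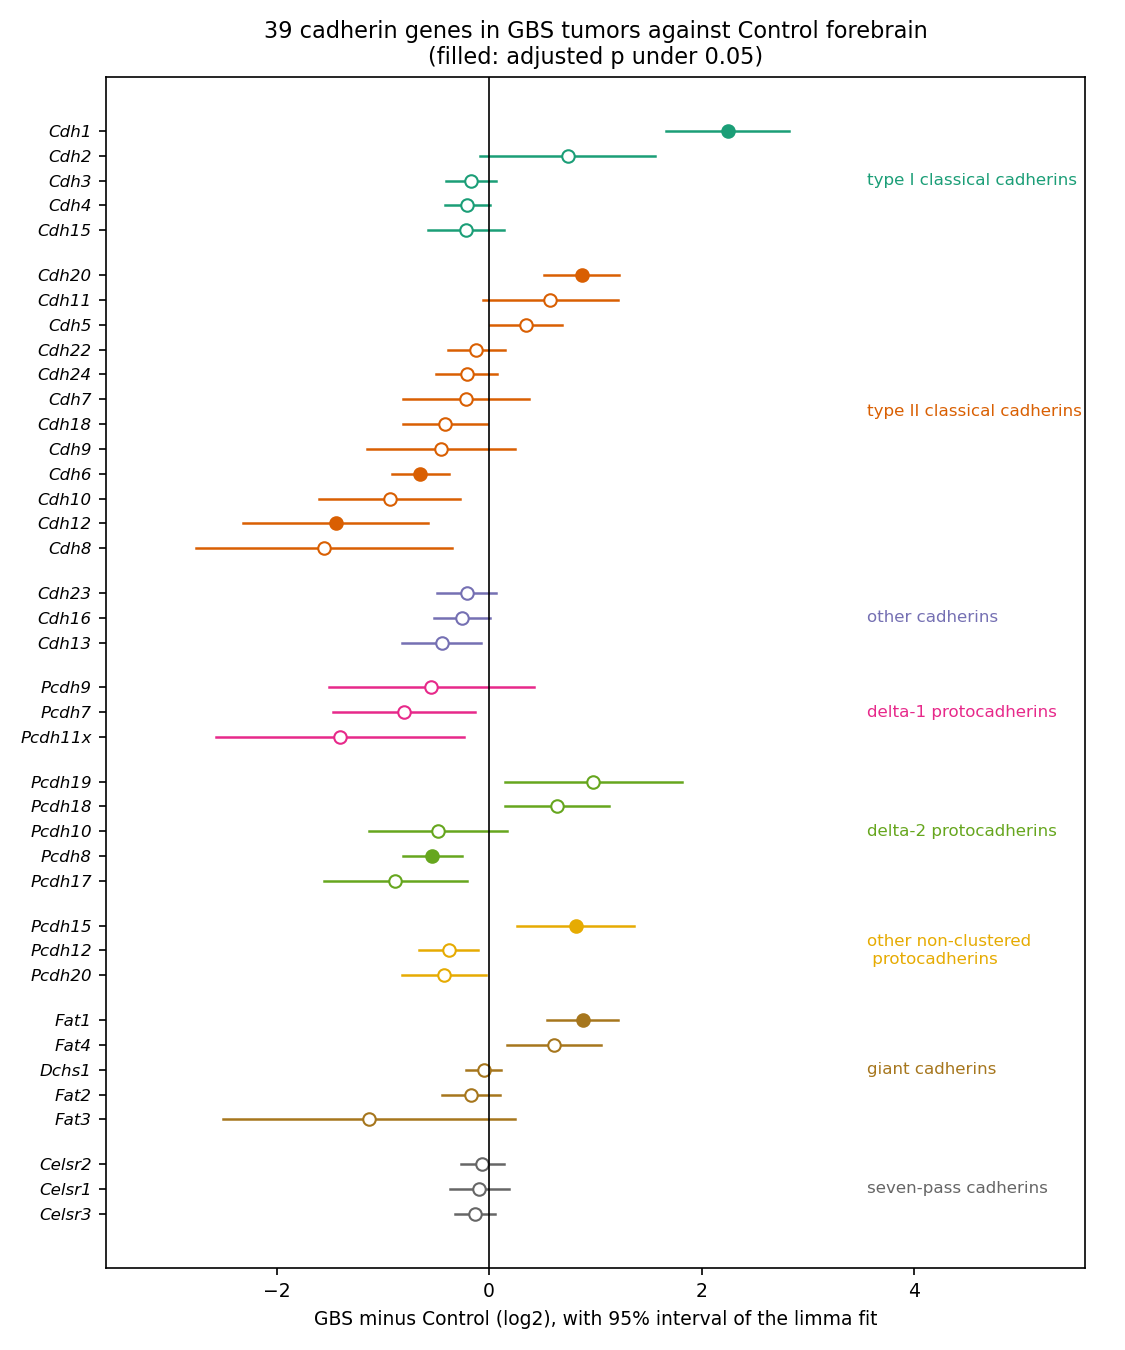
Change in GBS against Control (x axis, log2, with the 95% interval of the limma fit) for the 39 tested members, grouped by subfamily; filled points passed an adjusted p of 0.05. Cdh1 lies farthest to the right at 2.24, and Cdh8, Cdh12 and Pcdh11x lie farthest to the left at -1.55, -1.44 and -1.40.

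Among the type I classical cadherins, which bind their own kind on the next cell, Cdh1 was the one called. Cdh1 encodes E-cadherin, the cadherin of epithelia, which neural tissue gives up early in development in favour of N-cadherin. It read 6.54, 6.55 and 6.65 in Control, 6.94, 6.94 and 6.87 in GB, 6.43, 6.40 and 6.68 in GS, and 8.67, 9.59 and 8.21 in GBS replicates 1, 2 and 3. Every GBS array lay above all 9 others, with GBS replicate 2 the highest. The rise against Control was 4.74-fold, or 2.24 ± 0.262 on the log2 scale (SE, n = 3 each; limma adjusted p = 0.000491). It was called under every one of the 26 other settings tried, with an adjusted p of at most 0.0041.

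Cdh1 was also higher in GBS than in GS (2.32 ± 0.262, limma adjusted p = 0.000633) and than in GB (1.91 ± 0.262, limma adjusted p = 0.00218). The latter call was lost in a fit to these 6 arrays alone, at an adjusted p of 0.0662. The 3 GB arrays lay above the 3 Control arrays without overlap, by 0.34 on average, but this difference was not called (limma adjusted p = 1). GS differed from Control by -0.08, with a 95% interval from -0.65 to 0.50. The departure of GBS from the sum of the single-allele changes was 1.98 ± 0.37 and did not pass (limma adjusted p = 0.0631). It passed with limma's trend and robust settings and without GBS replicate 2 or GBS replicate 3. Among the alternatives chosen after seeing the data, it passed without the 3 deviating arrays and with the receptor-gene covariate, but not without all 4 arrays.

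**Figure D2:**
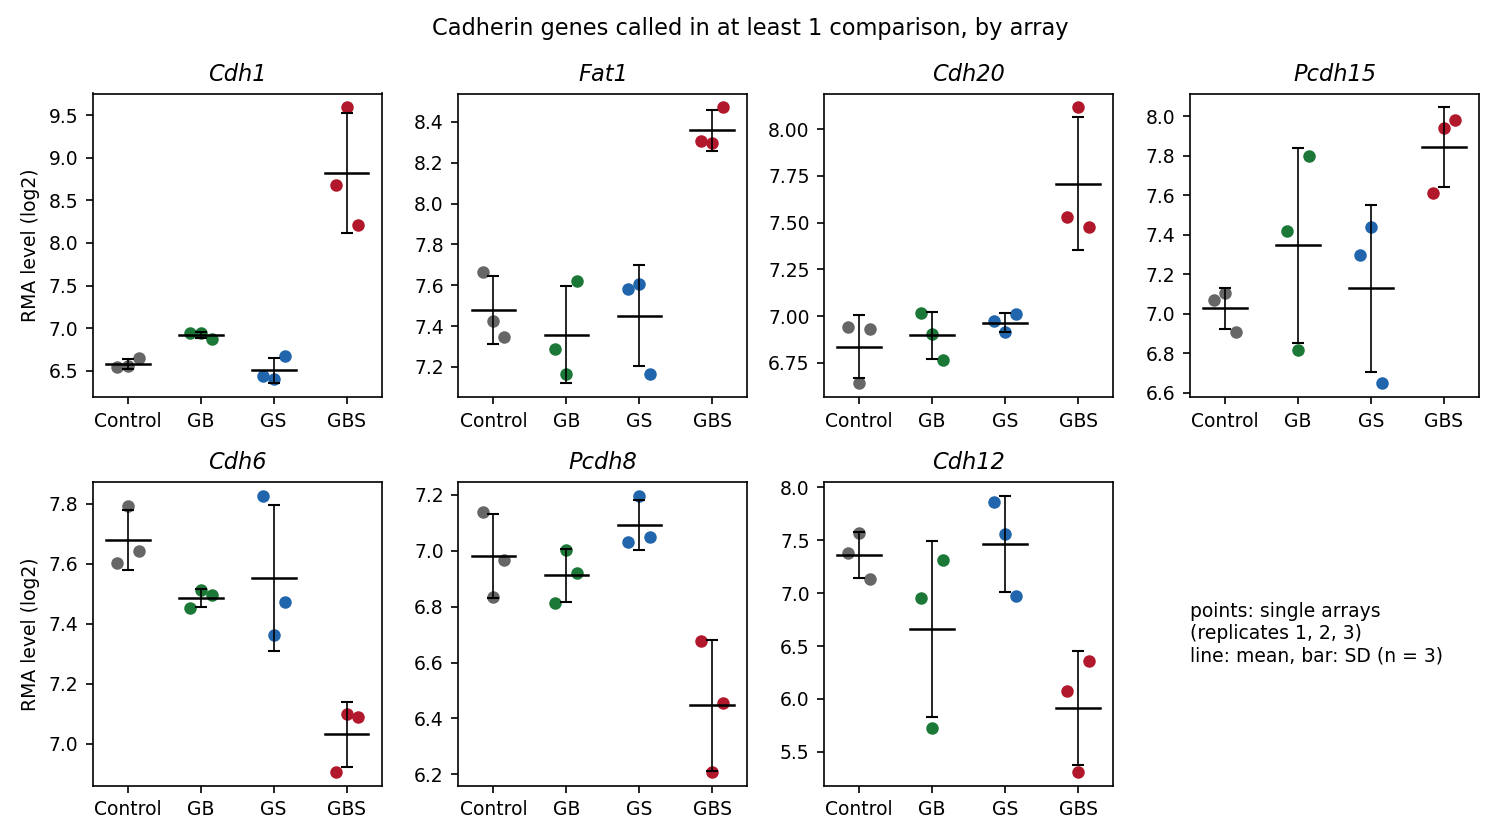
RMA level (y axis, log2) of the 7 called members on each array, by genotype (x axis); points are arrays, lines are means and bars are SD (n = 3). Cdh1, Fat1 and Cdh20 lie above all 9 other arrays in GBS, while Cdh12 is also low on GB replicate 2, at 5.73.

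Other epithelial genes were set beside Cdh1. This list of 28 genes was chosen after the Cdh1 values were seen, so it is given with no test. Of its 27 genes with a probe set, 26 had a lower mean in GBS than in Control and 1 a higher one, with a median of -0.24 and a range from -0.52 to 0.06. Of these genes 19 passed the filter, and the median over all genes tested was -0.10. The receptor genes, most of them silent in brain, were also lower in GBS than in Control. Whether the epithelial genes differ from such a shift was not tested. Epcam, an adhesion protein of epithelia, averaged 5.51 in GBS and 5.74 in Control, Grhl2, a transcription factor of epithelia, 5.73 and 6.04, and Esrp1, an epithelial splicing factor, 5.52 and 5.75. These 3 lay above the 40th percentile on 0 arrays. Cdh3, which encodes P-cadherin and is the gene next to Cdh1 with 0 protein-coding genes between them in RefSeq, differed by -0.17 (95% interval -0.40 to 0.06).

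N-cadherin, R-cadherin and M-cadherin were not called. Cdh2, the N-cadherin of radial glial junctions and neurons, read 9.55, 9.38 and 8.93 in Control, 9.52, 7.93 and 9.63 in GB, 9.75, 9.76 and 9.26 in GS, and 9.90, 10.08 and 10.11 in GBS. All 3 GBS arrays lay above the 9 others, and GB replicate 2 was the lowest. The difference from Control was 0.74 ± 0.373 (limma adjusted p = 0.157). It passed without GB replicate 2 and without the 3 arrays that deviate together (0.56 ± 0.0946, limma adjusted p = 0.00127), and with the receptor-gene level as a covariate it turned to -0.23. Cdh4, the R-cadherin of brain regions, differed by -0.20 (limma adjusted p = 0.136, 95% interval -0.42 to 0.01) and was called lower with quantile normalization (adjusted p = 0.0207). Cdh15, the M-cadherin of muscle and cerebellum, differed by -0.22 (95% interval -0.57 to 0.14). The means in Control, GB, GS and GBS, in that order, were 6.39, 6.34, 6.19 and 6.22 for Cdh3, 7.96, 7.92, 7.81 and 7.76 for Cdh4 and 6.64, 6.74, 6.54 and 6.42 for Cdh15.

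The type II cadherins, which sort neurons into groups and label brain areas, went both ways. Of 13 genes 12 were tested, of which 1 was called higher and 2 lower in GBS, and 9 had a negative change, with a median of -0.32. Cdh20 was the one that rose. It read 6.94, 6.64 and 6.93 in Control, 7.02, 6.91 and 6.77 in GB, 6.97, 6.91 and 7.01 in GS, and 7.53, 8.12 and 7.48 in GBS. The GBS arrays lay above all 9 others. The rise was 0.87 ± 0.16 against Control (limma adjusted p = 0.0063), 0.74 against GS (limma adjusted p = 0.0235) and 0.81 against GB (limma adjusted p = 0.0125). The call against GS was lost without GS replicate 1 or GS replicate 2, with the replicate number as a block and with sex as a covariate (adjusted p up to 0.152). The call against GB was lost in a fit to these 6 arrays alone and with sex as a covariate (adjusted p up to 0.118).

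Cdh6, which in the embryonic forebrain marks cortical and striatal territories, fell. It read 7.60, 7.79 and 7.64 in Control, 7.45, 7.51 and 7.49 in GB, 7.83, 7.36 and 7.47 in GS, and 6.91, 7.10 and 7.09 in GBS. The 3 GBS arrays were the lowest of the 12, and the GB arrays lay between them and Control. The fall was 0.64-fold of Control, or -0.65 ± 0.12 (SE; limma adjusted p = 0.00653), and it was called in all settings except the one that required a doubling or halving. Against GS and GB it was -0.52 and -0.45 (limma adjusted p = 0.0321 and 0.036). These calls were lost without any of 6 and of 8 single arrays, GBS replicates 1, 2 and 3 among them in each case. Both were also lost with centring, the compared groups alone, the replicate block and sex as a covariate. Over all settings the adjusted p reached 0.0991 and 0.112.

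Cdh12, a brain cadherin, had the larger fall, with wider spread. It read 7.38, 7.57 and 7.13 in Control, 6.95, 5.73 and 7.31 in GB, 7.87, 7.56 and 6.97 in GS, and 6.08, 5.31 and 6.36 in GBS. GBS lay below Control and GS without overlap, and overlapped GB through GB replicate 2. The difference was -1.44 ± 0.395 against Control (limma adjusted p = 0.0342) and -1.55 against GS (limma adjusted p = 0.0486). The first call was lost without GBS replicate 1 or 2, GS replicate 2 or any Control array, and the second without any of 9 single arrays. Over all settings the adjusted p reached 0.158 and 0.232.

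Cdh8, which marks areas of cortex and thalamus and their connections, showed the largest negative change of all members and was not called. It read 8.90, 9.34 and 8.71 in Control, 8.38, 6.63 and 9.17 in GB, 9.36, 9.12 and 8.42 in GS, and 7.84, 6.74 and 7.70 in GBS. GBS replicate 2 and GB replicate 2 were the lowest 2 arrays. The difference was -1.55 ± 0.546 (limma adjusted p = 0.0736), and -1.69 ± 0.309 without the 3 deviating arrays (limma adjusted p = 0.00198). Cdh10, another brain cadherin, followed with -0.94 ± 0.301 (limma adjusted p = 0.0585), and GBS lay below Control on every array. Cdh11, found in neural progenitors and mesenchyme, differed by 0.57 ± 0.288 (limma adjusted p = 0.155). It was called higher without GB replicate 2 and turned to -0.23 with the receptor-gene level as a covariate.

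The type II genes Cdh6, Cdh9, Cdh10, Cdh12 and Cdh18 follow each other on mouse chromosome 15 with 0 other protein-coding genes between neighbours in RefSeq. All 5 had a negative change in GBS, from -0.42 for Cdh18 to -1.44 for Cdh12, and Cdh6 and Cdh12 were called. On chromosome 8 the neighbours Cdh8, Cdh11 and Cdh5 differed by -1.55, 0.57 and 0.35, with opposite signs for Cdh8 and Cdh11 and the same sign for Cdh11 and Cdh5. Cdh5, the VE-cadherin of blood vessels, was not called (0.35 ± 0.152, limma adjusted p = 0.121). Of 8 tested endothelial marker genes 1, Emcn, was called higher and 0 lower, beside 11% and 4.35% of all genes. The mean level of the 9 listed genes ran from 6.47 to 6.58 in GBS and from 6.53 to 6.65 in Control. Cdh7, Cdh9, Cdh18, Cdh22 and Cdh24 differed by -0.12 to -0.45, with no call. Among the other cadherins, Cdh13, a cadherin held to the membrane by a lipid anchor, differed by -0.45 (limma adjusted p = 0.0892), Cdh16 by -0.25 and Cdh23, part of the tip links of hair cells, by -0.21. In the same order of genotypes, the group means were 6.80, 7.06, 6.90 and 7.14 for Cdh5, 7.83, 7.13, 7.79 and 6.89 for Cdh10, 7.78, 7.79, 7.66 and 7.34 for Cdh13 and 6.36, 6.42, 6.26 and 6.15 for Cdh23. They were 6.91, 7.05, 7.11 and 6.69 for Cdh7, 6.08, 6.13, 6.08 and 5.63 for Cdh9 and 6.43, 6.36, 6.54 and 6.01 for Cdh18. The other tested cadherins had means of 6.59, 6.54, 6.32 and 6.34 for Cdh16, 6.97, 7.03, 6.75 and 6.85 for Cdh22 and 8.07, 8.11, 7.84 and 7.86 for Cdh24. The cadherins that were not tested had means of 5.49, 5.36, 5.26 and 5.26 for Cdh17, 3.91, 3.89, 3.88 and 3.77 for Cdh19 and 6.27, 6.34, 6.14 and 5.99 for Cdh26. Among these genes Cdh10 had the lowest GBS mean relative to Control.

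Delta-protocadherins carry out weaker adhesion and pass signals to the actin skeleton through the WAVE complex. All 3 tested delta-1 genes had a negative change in GBS, with a median of -0.80, and limma called 0 of them, beside 2 with an unadjusted p under 0.05 (Pcdh7 and Pcdh11x). Pcdh11x read 8.35, 8.05 and 7.67 in Control, 8.09, 6.91 and 8.69 in GB, 8.80, 9.18 and 7.24 in GS, and 6.54, 6.15 and 7.18 in GBS. The GBS arrays lay below Control and GS, and GB replicate 2 fell among them. The difference was -1.40 ± 0.531 (limma adjusted p = 0.0886), and -1.58 ± 0.266 without the 3 deviating arrays (limma adjusted p = 0.00128). Pcdh7 differed by -0.80 (limma adjusted p = 0.0894) and Pcdh9 by -0.54 (limma adjusted p = 0.329). Pcdh9 had a second probe set, which differed by -0.53. The means in Control, GB, GS and GBS were 8.14, 7.83, 8.26 and 7.34 for Pcdh7, 8.76, 8.14, 9.22 and 8.21 for Pcdh9 and 5.93, 5.91, 5.82 and 5.63 for Pcdh1.

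Of the 5 delta-2 genes, Pcdh8 was called lower, and 3 had a negative and 2 a positive difference. These 3 are shown with the 250 bases before the gene's start, because Pcdh8, Pcdh10 and Pcdh17 all had lower means in GBS and their RefSeq windows end at the outermost start of the gene (GRCm38.p6). Capitals mark matches, on either strand, to a TCF/LEF core (CTTTGAA or CTTTGAT or CTTTGTA or CTTTGTT), a GLI core (CCACCCA) or the E-box bound by Snail and Zeb repressors (CACCTG). No other motif was searched, and the motifs share no letters in these windows.
Pcdh8 (chr14:79771313-79771562, minus strand): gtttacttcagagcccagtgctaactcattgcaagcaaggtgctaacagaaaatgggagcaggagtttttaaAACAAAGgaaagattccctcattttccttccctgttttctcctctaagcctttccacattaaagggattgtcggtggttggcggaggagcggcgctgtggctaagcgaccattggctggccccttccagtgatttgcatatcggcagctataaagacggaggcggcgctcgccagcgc
Pcdh17 (chr14:84443313-84443562, plus strand): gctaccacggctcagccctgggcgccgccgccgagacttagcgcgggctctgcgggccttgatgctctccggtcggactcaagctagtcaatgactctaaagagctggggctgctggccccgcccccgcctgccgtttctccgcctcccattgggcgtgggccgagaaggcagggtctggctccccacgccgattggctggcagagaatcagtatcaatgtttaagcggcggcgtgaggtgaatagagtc
Pcdh10 (chr3:45378148-45378397, plus strand): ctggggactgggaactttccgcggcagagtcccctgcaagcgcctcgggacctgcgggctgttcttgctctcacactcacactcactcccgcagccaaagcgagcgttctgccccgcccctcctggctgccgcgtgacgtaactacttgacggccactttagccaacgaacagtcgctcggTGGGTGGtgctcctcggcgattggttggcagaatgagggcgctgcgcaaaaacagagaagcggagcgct

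Pcdh8 holds a TCF/LEF core that begins 178 bases before the start, Pcdh10 a GLI core that begins 69 bases before it, and Pcdh17 none of the letters searched. RefSeq windows were at hand for 28 members, 31 windows in all. For 6 of these members a window ended at the outermost start of the gene, and for the others it did not. The TCF/LEF core stood in 16.1% of these windows and in 14.8% of all 32851 windows, the GLI core in 6.45% and 8.11%, and the E-box in 16.1% and 17.2%. Members held these letters about as often as other genes, and a match is no evidence of binding.

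Pcdh8, an activity-regulated protocadherin of developing neurons, read 7.14, 6.84 and 6.97 in Control, 6.81, 7.0 and 6.92 in GB, 7.03, 7.20 and 7.05 in GS, and 6.68, 6.21 and 6.46 in GBS. The GBS arrays were the lowest of the 12. The fall was -0.53 ± 0.126 against Control (limma adjusted p = 0.0199), -0.65 against GS (limma adjusted p = 0.0151) and -0.46 against GB (limma adjusted p = 0.0401). The call against Control was lost without GBS replicate 2, Control replicate 1 or replicate 3 of Control, that against GS without GBS replicate 2 or GS replicate 2, and that against GB without any of 8 single arrays. Over all settings the adjusted p reached 0.0981, 0.124 and 0.277.

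Pcdh17, a protocadherin of basal ganglia circuits and near neighbour of Pcdh8 on chromosome 14, read 8.90, 8.86 and 8.67 in Control, 8.77, 8.14 and 9.19 in GB, 9.23, 9.45 and 8.39 in GS, and 8.12, 7.53 and 8.13 in GBS. All GBS arrays lay below the 9 others, though narrowly so beside GB replicate 2. The difference was -0.88 ± 0.306 (limma adjusted p = 0.0714). Pcdh10, which guides axons through the striatum, differed by -0.48 (limma adjusted p = 0.219). Pcdh18 and Pcdh19 went the other way. Pcdh19, the X-linked gene of an epilepsy that affects girls, read 7.43, 6.87 and 6.90 in Control, 7.43, 6.45 and 7.51 in GB, 7.64, 7.79 and 6.38 in GS, and 7.71, 8.21 and 8.21 in GBS. GBS lay above Control without overlap and overlapped GS through GS replicate 2.

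The difference of Pcdh19 from Control was 0.98 ± 0.378 (limma adjusted p = 0.0931). It passed without GS replicate 3 or GB replicate 2, and with the receptor-gene level as a covariate it was -0.05. Pcdh18 differed by 0.64 (limma adjusted p = 0.0735), with all GBS arrays above the 9 others. Among the remaining protocadherins, Pcdh15, which pairs with Cdh23 in hair cell tip links, was called at the very edge. It read 7.07, 7.11 and 6.91 in Control, 7.42, 6.82 and 7.80 in GB, 7.30, 7.44 and 6.65 in GS, and 7.61, 7.94 and 7.98 in GBS. Only Control and GS were free of overlap with GBS. The difference was 0.82 ± 0.25 (limma adjusted p = 0.0499), and the call was lost without any of 9 single arrays (GBS replicates 1, 2 and 3 and Control replicates 1, 2 and 3 among them), with adjusted p up to 0.672 over all settings. A second probe set of Pcdh15 differed by -0.35, against 0.82 for the one used, so the gene's direction depends on the probe set. Pcdh12, found in vessels, differed by -0.38 (limma adjusted p = 0.0611) and Pcdh20 by -0.43 (limma adjusted p = 0.111). The means in the 4 genotypes, Control, GB, GS and GBS, were 7.97, 7.72, 8.17 and 7.49 for Pcdh10, 6.83, 6.75, 6.63 and 6.45 for Pcdh12, 7.31, 7.47, 7.54 and 7.95 for Pcdh18 and 6.66, 6.44, 6.82 and 6.23 for Pcdh20.

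**Figure D3:**
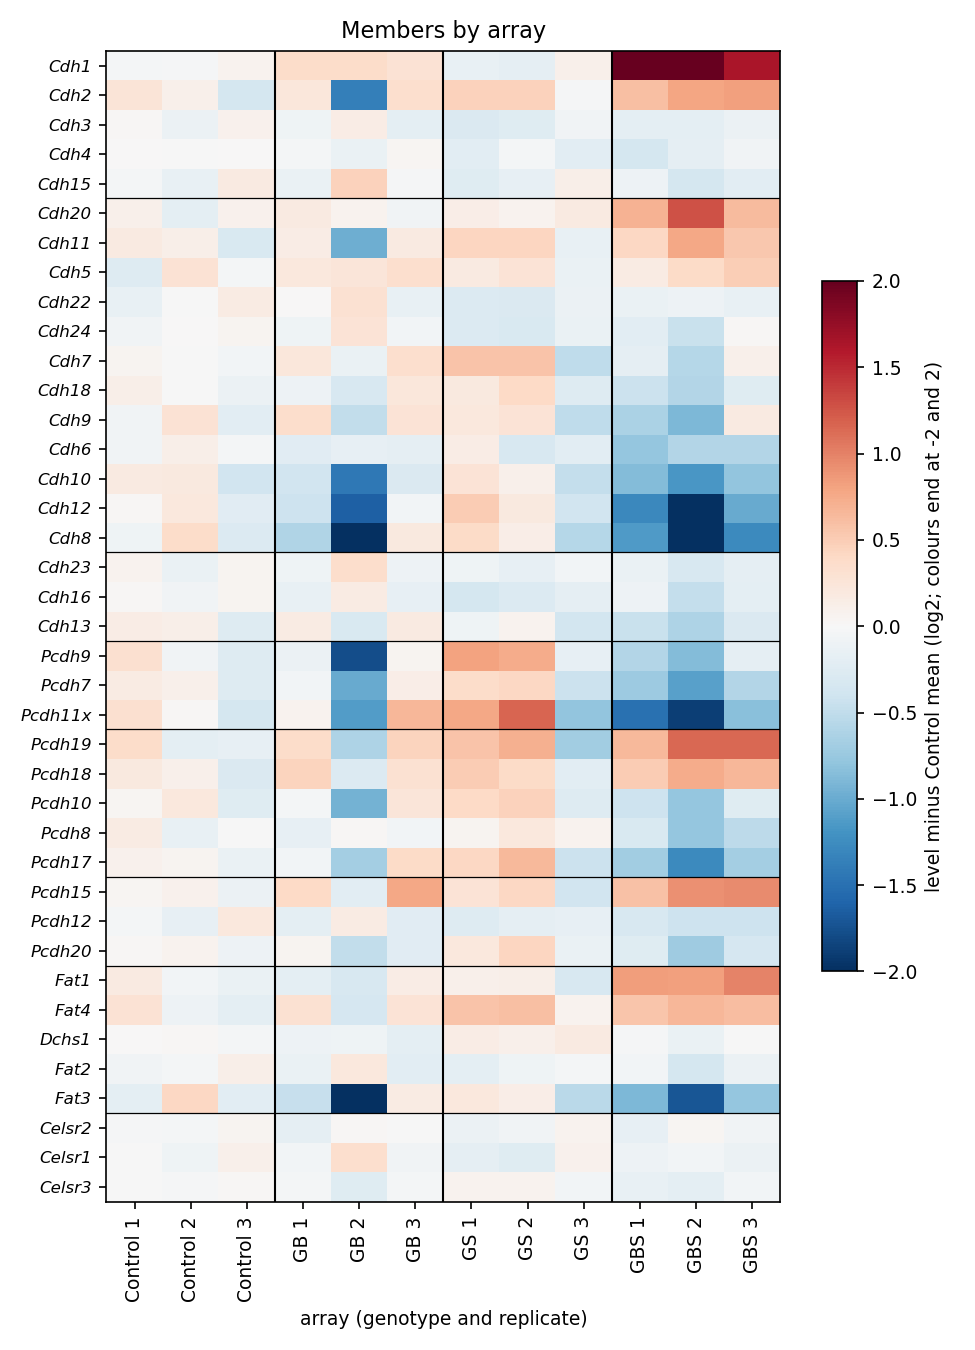
Level of each tested member (rows, by subfamily) on each of the 12 arrays (columns), as the log2 difference from that gene's Control mean. Cdh1, Cdh20 and Fat1 lie above all other arrays in GBS, whereas Fat3, Cdh8 and Cdh12 are low on GBS replicate 2 and also on GB replicate 2.

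The giant cadherins differ in what they bind: FAT4 and DCHS1 are receptor and ligand for each other, while FAT1 acts on the actin skeleton and on YAP signalling. Fat1 read 7.67, 7.43 and 7.35 in Control, 7.29, 7.16 and 7.62 in GB, 7.58, 7.60 and 7.17 in GS, and 8.31, 8.30 and 8.47 in GBS. The GBS arrays lay above all 9 others and close together. The rise was 0.88 ± 0.153 against Control (limma adjusted p = 0.00493), 0.91 against GS (limma adjusted p = 0.00747) and 1.0 against GB (limma adjusted p = 0.00364). No single array ended any of these calls. The call against GB was lost in a fit to these 6 arrays alone (adjusted p = 0.0504), and that against GS with sex as a covariate (adjusted p = 0.0619). Neither allele alone moved Fat1 past the test (GB -0.12 and GS -0.03), and the departure from the sum was 1.03 ± 0.217 (limma adjusted p = 0.108). This departure passed without the 3 deviating arrays and with the receptor-gene covariate, but not without all 4 arrays.

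Fat4 read 8.27, 7.87 and 7.79 in Control, 8.28, 7.65 and 8.26 in GB, 8.54, 8.59 and 8.05 in GS, and 8.53, 8.64 and 8.60 in GBS. GBS lay above Control and GB and overlapped GS. The difference from Control was 0.61 ± 0.199 (limma adjusted p = 0.0611), and it passed without GS replicate 3 or GB replicate 2. Dchs1 differed by -0.05 (95% interval -0.22 to 0.11), a direction that turned positive when arrays were centred on their medians (0.02). Fat3, an organiser of neuron shape, read 9.99, 10.61 and 9.98 in Control, 9.74, 7.31 and 10.36 in GB, 10.41, 10.32 and 9.65 in GS, and 9.29, 8.48 and 9.41 in GBS. On this probe set GB replicate 2 was the lowest array by far. The other Fat3 probe sets did not all share this, and on 1 of them it read 7.82, above all GBS arrays (7.09 to 7.52). The change of Fat3 in GBS was -1.13 ± 0.624 (limma adjusted p = 0.185). All 15 probe sets of Fat3 had a negative change, from -0.03 to -1.13, with a median of -0.64, and the one used had the largest. Fat2, a cerebellar cadherin, differed by -0.17.

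The CELSR cadherins, which set planar polarity and guide forebrain axon tracts, did not pass limma's test in any comparison, with 0 at an unadjusted p under 0.05. Celsr1 differed by -0.09 (95% interval -0.37 to 0.19), Celsr2 by -0.07 (-0.27 to 0.14) and Celsr3 by -0.13 (-0.32 to 0.05). Centring the arrays, and leaving out the 4 deviating arrays, turned Celsr2 to 0.01, and the receptor-gene covariate turned Celsr1 to 0.21 and Celsr2 to 0.04. Group means in Control, GB, GS and GBS were 7.09, 7.16, 6.98 and 7.0 for Celsr1, 7.58, 7.53, 7.55 and 7.52 for Celsr2 and 7.38, 7.27, 7.41 and 7.24 for Celsr3. Those of the giant cadherins not given above were 7.24, 7.11, 7.38 and 7.18 for Dchs1 and 6.63, 6.58, 6.52 and 6.45 for Fat2.

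Counts of called members rested on few arrays. Leaving out a GB or GS array leaves each difference of GBS from Control unchanged. It changes only the estimate of spread that all groups share, and with it the p-values. Against Control, 9 members were higher and 12 lower without GB replicate 2 (23.1% and 30.8% of members, beside 23.0% and 20.2% of all genes), and 7 and 6 without GS replicate 3 (17.9% and 15.4%, beside 12.2% and 5.73%). Without the 3 deviating arrays there were 9 and 15 (23.1% and 38.5%, beside 23.5% and 18.9%). Without GBS replicate 1 as well there were 9 and 16 (23.1% and 41.0%, beside 25.5% and 24.4%). With the receptor-gene level as a covariate, which did not overlap between GBS and Control, 14 members were lower (35.9%, beside 7.37%). Lower members numbered 1 without any of GBS replicate 2 (0.549% of all genes) and Control replicates 1 and 3. The 9 higher members without the 3 arrays were Cdh1, Cdh2, Cdh11, Cdh20, Fat1, Fat4, Pcdh15, Pcdh18 and Pcdh19. The 15 lower ones were Cdh6, Cdh8, Cdh10, Cdh12, Cdh13, Cdh18, Fat3, Pcdh7, Pcdh8, Pcdh9, Pcdh10, Pcdh11x, Pcdh12, Pcdh17 and Pcdh20.

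Marker genes of other cell states moved beside the members. Over all genes tested 11% were called higher and 4.35% lower in GBS against Control. All 7 tested genes of dividing cells were higher in GBS than in Control, and their mean level ran from 8.38 to 9.30 in GBS and from 6.55 to 6.78 in Control. In the radial glia and progenitor list 5 of 9 tested genes were higher and 1 lower, and the mean of 10 genes ran from 7.87 to 8.16 in GBS and from 7.60 to 7.78 in Control. In the postmitotic neuron list 0 of 14 genes were higher and 4 lower, with means from 7.95 to 8.62 in GBS, 8.53 to 9.28 in GS, 7.74 to 8.90 in GB and 8.66 to 8.93 in Control. The lowest neuron mean was on GB replicate 2, the array on which Cdh8, Cdh12 and Fat3 were also low. Members with higher means in GBS were low on that array too, with Cdh2 at 7.93, Cdh11 at 7.32 and Fat4 at 7.65. Others were high on it, such as Cdh15 at 7.10 and Celsr1 at 7.43. The mean of the radial glia and progenitor list ran from 7.30 to 7.83 in GB. Of 8 forebrain identity genes 2 were higher (Emx2 and Lhx2) and 3 lower (Dlx1, Neurod6 and Tbr1), with differences from -1.85 to 1.88. Meningeal markers had 1 of 6 genes higher, choroid plexus markers 1 of 6 and microglial markers 0 of 5 called by limma in either direction, with 2 at an unadjusted p under 0.05 (C1qb and Csf1r, both with a negative difference). The part of these cell states in the members' values was not tested.

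The comparison of GBS with GS asks what the beta-catenin allele adds to SmoM2, and that with GB what SmoM2 adds to the beta-catenin allele. Against GS, Cdh1, Cdh20 and Fat1 were higher and Cdh6, Cdh12 and Pcdh8 lower, 3 each (7.69% of members, beside 3.56% and 1.51% of all genes). The arrays did not overlap for 14 members lower in GBS (35.9%, beside 12.4% of all genes) and for 6 higher (15.4%, beside 16.5%). At an unadjusted p under 0.05 there were 17 members (43.6%, beside 18.6% of all genes). Higher members numbered 4 without GB replicate 2 (7.75% of all genes) and 3 without GS replicate 3 (2.49%). Lower members numbered 11 without GB replicate 2 (4.09%), 8 without GS replicate 3 (2.33%) and 0 without GBS replicate 2 (0.331%). There was 1 without GBS replicate 1 or 3, GS replicate 1 or 2, or Control replicate 1 or 3 (0.317% to 1.37%). Against GB, Cdh1, Cdh20 and Fat1 were higher (7.69% of members, 9.6% of all genes) and Cdh6 and Pcdh8 lower (5.13%, 3.12% of all genes). The arrays did not overlap for 8 members higher in GBS than in GB (24.2% of all genes) and 5 lower (23.7%), and 13 members had an unadjusted p under 0.05 (33.3%, beside 41.8% of all genes). Higher members numbered 5 without GB replicate 3 (12.8%, beside 15.5% of all genes) and 3 without GB replicate 2 (6.88% of all genes). Lower members numbered 5 without GB replicate 2 (1.29%), namely Cdh8, Cdh12, Cdh13, Pcdh11x and Pcdh17, of which 0 were lower with it. They numbered 0 without GBS replicate 2 (0.176%), and 0 without GBS replicate 3 or any Control array (1.14% to 1.39%). There was 1 without GBS replicate 1, GS replicate 1, GS replicate 2 or GB replicate 1 (1.18% to 2.05%). Without the 3 deviating arrays 15 members were lower against GS (8.77% of all genes), and 6 were higher and 14 lower against GB (17.1% and 7.09%). Without all 4 these were 15, 7 and 12 (8.3%, 20.5% and 10.2%). These comparisons share the GBS arrays and are not independent of each other or of that with Control.

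**Figure D4:**
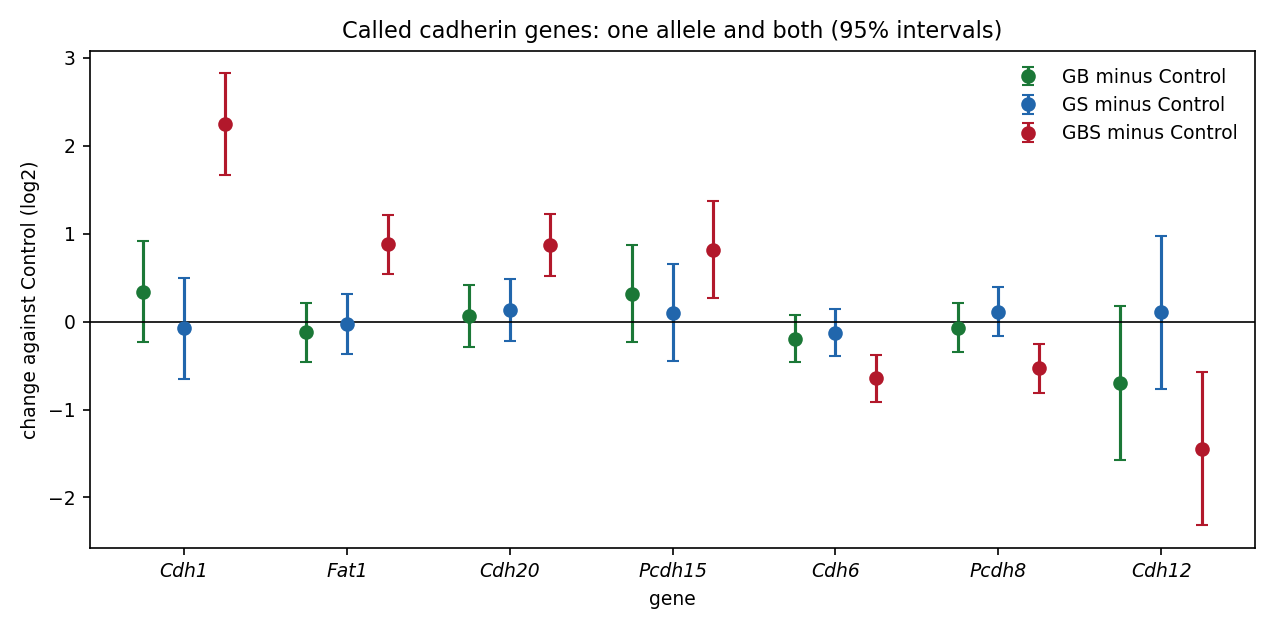
Change against Control (y axis, log2, with 95% intervals) of the 7 called members with the beta-catenin allele alone (GB), SmoM2 alone (GS) and both (GBS). The intervals of GB and GS include 0 for all 7, and those of GBS do not. The 7 were chosen for their call in GBS against Control, so their GBS intervals leave out 0 by that choice.

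With either allele alone limma called 0 of the 39 members. Over all genes it called 3 higher and 0 lower in GS (0.0211% and 0.0%) and 0 in GB (0.0%). At an unadjusted p under 0.05 there was 1 member in GS, Cdh16 (-0.27), and 1 in GB, Cdh10 (-0.70) (2.56% of members, beside 5.91% and 1.1% of all genes). In GS the arrays did not overlap with Control for 4 members (Dchs1 higher, Cdh4, Cdh16 and Cdh24 lower; 10.3%, beside 17.5% of all genes, which is 8.09% higher and 9.43% lower). In GB they did not overlap for 4 as well (Cdh1 higher, Cdh6, Celsr3 and Dchs1 lower; 10.3%, beside 4.1% of all genes, which is 3.01% higher and 1.09% lower). For the departure from additivity limma called 0 members, beside 0.331% of all genes (0.324% above and 0.00704% below the sum), and 6 had an unadjusted p under 0.05 (15.4%, beside 8.16% of all genes): Cdh1, Fat1 and Cdh20 above the sum, and Pcdh8, Pcdh17 and Pcdh11x below it. Without the 3 deviating arrays Cdh1 and Fat1 passed above it and 5 below it (5.13% and 12.8%, beside 0.845% and 2.06% of all genes). Without all 4, 0 members passed limma's test above it and 3 below it (7.69%, beside 0.867% of all genes).

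GBS lay beyond all 9 other arrays for 9 members, which were Cdh1, Cdh2, Cdh20, Fat1 and Pcdh18 above them (12.8%, beside 13.6% of all genes) and Cdh6, Pcdh8, Pcdh12 and Pcdh17 below them (10.3%, beside 7.33%).

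**Figure D5:**
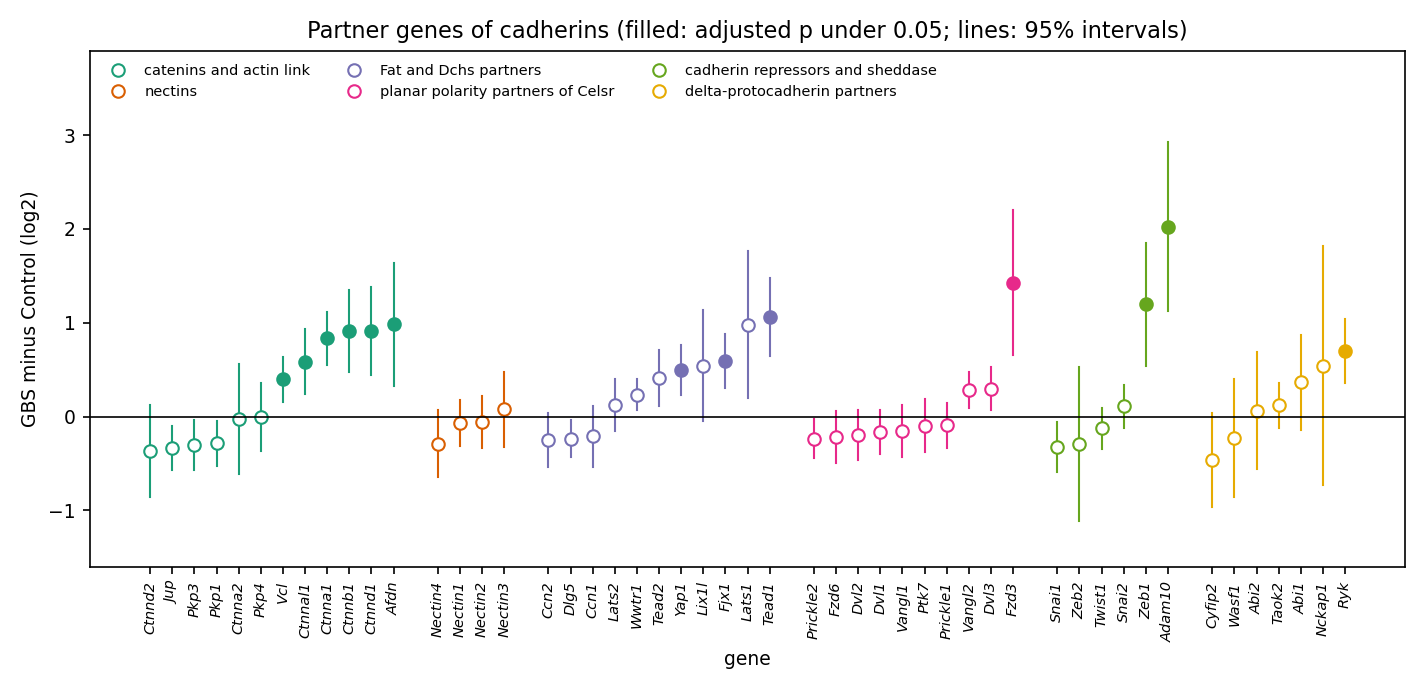
Change in GBS against Control (y axis, log2, with 95% intervals) of the tested partner genes, coloured by list; filled points passed an adjusted p of 0.05. All 13 called partners lie above 0, with Adam10 the highest at 2.02.

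Among genes that work with cadherins, the catenins and actin linkers had 6 of 12 tested genes higher and 0 lower in GBS against Control. Their median was 0.20 beside -0.10 over all genes, of which 11% were called higher and 4.35% lower. Ctnna1, the alpha-catenin that ties the complex to actin, rose by 0.84 ± 0.128 (limma adjusted p = 0.00249) and kept its call in all other settings that used this threshold. Ctnnb1, beta-catenin itself, rose by 0.91 (limma adjusted p = 0.0138), and Ctnnd1, the p120-catenin that keeps cadherins at the membrane, by 0.91 (limma adjusted p = 0.0181). The first was lost without GBS replicate 2 or Control replicate 3, the second also without GBS replicate 3 or Control replicate 1. The alpha-catenin relative Ctnnal1 rose by 0.58 and the actin linkers Vcl and Afdn by 0.40 and 0.99, with calls lost without any of 5, 5 and 8 single arrays. Ctnna1 was also higher in GBS than in GS and GB (0.55 and 0.68, limma adjusted p = 0.0349 and 0.0104). Jup, the desmosomal relative of beta-catenin, differed by -0.34 (limma adjusted p = 0.0531). Of the 13 partner genes called in all lists, 9 lost their call with the receptor-gene level as a covariate and 5 with the replicate number as a block. Ctnna1, Tead1 and Adam10 lost theirs with neither, nor did Yap1 with the covariate. Of the 4 nectins, adhesion molecules of the same junctions, limma called 0, with 0 at an unadjusted p under 0.05 and a median of -0.06.

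Of 11 partners of FAT and DCHS, 3 were higher and 0 lower (11% and 4.35% of all genes), with a median of 0.41. Tead1, the DNA partner of YAP, rose by 1.06 (limma adjusted p = 0.00518) in all settings at this threshold. Fjx1, a kinase of the Golgi that tunes FAT and DCHS binding, rose by 0.59 (limma adjusted p = 0.0148) and Yap1 by 0.49 (limma adjusted p = 0.0222), and the calls of both were lost without any of GBS replicate 2 and Control replicates 1 and 3, that of Yap1 also without Control replicate 2. Of 10 planar polarity partners of CELSR 1 was higher, beside 11% of all genes. It was the receptor gene Fzd3, which rose by 1.43 (limma adjusted p = 0.0226), and its call was lost without GBS replicate 2 or any Control array. Of the 7 tested partners of delta-protocadherins 1 was higher, beside the same 11%. This was Ryk, a WNT receptor, which rose by 0.70 (limma adjusted p = 0.0144). Its call was lost without GBS replicate 2 or either of Control replicates 1 and 3.

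The list of cadherin repressors and shedding enzymes had 2 of 6 tested genes higher, beside 11% of all genes. Adam10, the protease that cuts cadherins at the cell surface, rose by 2.02 ± 0.409 (limma adjusted p = 0.0099) in all settings at this threshold. Zeb1, a transcription factor known to repress Cdh1, rose by 1.2 ± 0.297 (limma adjusted p = 0.0242), and its call was lost without GBS replicates 2 or 3 or Control replicates 1 or 3, with the block and with the receptor-gene covariate (adjusted p up to 0.205). Snai1, another repressor of Cdh1, differed by -0.33 (limma adjusted p = 0.0835), and Zeb2 by -0.29 and Twist1 by -0.13.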

How the data were processed

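The deposited table holds log2 values, which the authors made with RMA in Expression Console of Affymetrix (per the submitters' processing notes). RMA corrects background, normalizes arrays and summarises probes. The log2 scale was taken from the range, 2.82 to 13.83. The sources used here name no software version, probe set library or genome build. No further normalization was applied. Probe sets were named from GEO's platform annotation, with symbols updated through a RefSeq table of GRCm38.p6, which held 21698 of the 21789.

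A linear model with 4 group means was fitted in limma 3.58.1 (R 4.3.3) over all 12 arrays (8 residual and 2.9 prior degrees of freedom), with two-sided tests. Errors beside differences are standard errors. Precision is limited by the number of arrays. On simulated data for GBS against Control over 14195 genes, 78.6% of 2-fold changes were recovered. The simulated noise was independent between genes and lacked the deviations that the real arrays shared, so this share may not hold for them.

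Members and lists were chosen with earlier results of these data known. Array values were to be given for called members, and values in any case for Cdh1, Cdh2, Cdh4, Cdh5, Cdh11, Fat4, Dchs1, Celsr1, Celsr2, Celsr3 and Pcdh19. Of each partner list up to 4 called genes were to be named. Array values of other members, and partners beyond these, were chosen after their values were seen. Alternatives were a stricter and no filter on dim genes, probe sets averaged per gene, quantile normalization, centring, limma's trend and robust settings, the compared groups alone, the replicate block, stricter call rules and each array left out.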

Additional observations from a re-analysis of the deposited data

How the results depend on the processing

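Counts below are of members called. Leaving out each array in turn gave 3 to 9 higher and 1 to 12 lower against Control. In GBS against GS it gave 2 to 4 and 0 to 11, and in GBS against GB 3 to 5 and 0 to 5. Above additivity it gave 0 to 1, with the 1 coming without GBS replicate 2 or 3 (0.19% and 0.183% of all genes). Shares of all genes at the other largest counts are given above. Centring arrays on their medians left 1 lower against GS and 0 against GB (0.986% and 1.8% of all genes). Limma's trend and robust settings gave 1 above additivity (0.366% of all genes). Fits to the compared groups alone gave 9 higher and 15 lower against Control (24.4% and 21.8% of all genes), and 0 and 0 against GB (0.542% and 0.0%). Deviations from the group means correlated above 0.1 in 7 of 18 same-numbered pairs of arrays, beside 20 of 36 pairs with other numbers. The labels do not say whether same-numbered arrays share a litter or batch. These correlations cannot settle it, since arrays of unlike number shared a strong deviation (0.83 for GS replicate 3 and GB replicate 2). With the replicate number as a block, 1 was lower against GS and 0 against GB (0.62% and 0.5% of all genes). An adjusted p under 0.01 left 1 lower against Control, 0 against GS and 0 against GB (0.43%, 0.261% and 0.0986% of all genes). Requiring 2-fold left 1 higher and 1 lower against Control (3.43% and 0.183% of all genes). It left 1 and 1 against GS (1.3% and 0.197%), and 0 lower against GB (0.0282%).

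4 alternatives were chosen after seeing the data. Without the 3 arrays that deviate together there were 9 higher and 15 lower against Control. In GS 1 was higher (Fat4, 2.56% of members, beside 9.86% of all genes). There were 15 lower against GS, and 6 higher and 14 lower against GB. Additivity had 2 above and 5 below it (0.845% and 2.06% of all genes). Without GBS replicate 1 as well there were 9 higher and 16 lower against Control. In GS 2 were higher (Fat4 and Pcdh19, 5.13% of members, beside 12.6% of all genes). There were 5 higher and 15 lower against GS (10.2% and 8.3% of all genes), and 7 and 12 against GB. Below additivity there were 3 (0.867% of all genes), and Celsr2 turned to 0.012. With the receptor-gene level as a covariate, 14 were lower against Control, 15 against GS and 12 against GB (7.37%, 8.89% and 3.73% of all genes). Additivity had 2 above it (Cdh1 and Fat1) and 2 below it (Pcdh11x and Pcdh17), beside 1.03% and 0.726% of all genes. This covariate turned the difference from Control to -0.23 for Cdh2, -0.23 for Cdh11, 0.21 for Celsr1, 0.045 for Celsr2 and -0.052 for Pcdh19. Centring turned Dchs1 to 0.020 and Celsr2 to 0.0075. With sex by Xist as a covariate, 1 was higher and 0 lower against GS, and 0 lower against GB (1.13%, 0.359% and 0.0493% of all genes). The cause of these shifts was not tested, and the receptor-gene level of GBS did not overlap that of GB or Control.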
